A study of Mus musculus with 6 samples.

Results

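The translation initiation and elongation factors are the proteins that load messenger RNA and initiator tRNA onto the ribosome and then move it along the coding sequence. The 61 genes described here were chosen by name from 23314 rows of an RNA sequencing table of mouse quadriceps. They are the rows whose symbols begin with Eif and a digit, or with Eef1 or Eef2, with a mean of at least 1 FPKM over the 6 libraries. FPKM is a level per length of transcript and per amount of sequence mapped in a library. Of 71 rows with such names, 6 were left out as pseudogenes by name. A further 2 were the pair Eif2s3x and Eif2s3y, and 2 lay under the minimum. The lowest member was Eif2ak3 at a mean of 1.27 FPKM, and the highest row under the minimum was Eif5a2 at 0.354 FPKM. Regulators and modifying enzymes that carry the family names, such as Eif4ebp1 and Eef2kmt, are among the members.

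The samples were quadriceps, a thigh muscle, from mice aged 2 months. The control group, MyoCre, had the genotype Myogenin-Cre/+. The K15SKO group had the genotype Myogenin-Cre/+;K15F/F, in which the same Cre deletes floxed Klf15. Both groups therefore carried Cre. Where 3 values are given for the controls (MyoCre) or the knockouts (K15SKO), they follow the library numbers 1 to 3. Myogenin is switched on in differentiating muscle, so blood vessel, immune, fat and connective tissue cells of the sample are expected to keep Klf15. Each group held 3 libraries, although the design text speaks of 4, and no label says whether each library is from a different animal. The p-values thus measure the spread between these samples, which may be technical.

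Translation begins when eIF2 brings the initiator tRNA to the small ribosomal subunit and eIF4E, eIF4G and eIF4A recruit the capped messenger. eIF3 holds the parts together while the start codon is sought. During elongation, eEF1A delivers each aminoacyl-tRNA, and eEF2 moves the ribosome to the next codon. Muscle is known for its choice of paralog: eEF1A1 is the form of most tissues and of immature muscle, while eEF1A2 takes over in mature muscle fibres, neurons and heart. Protein synthesis in muscle is controlled through eIF4E-binding proteins, which mTORC1 phosphorylates, and through kinases that phosphorylate eIF2.

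The targeted gene and the tissue markers were examined first. Klf15 stood at 28.4 to 35.2 FPKM in MyoCre and at 2.22, 21.7 and 5.32 FPKM in the knockouts, which was 7.08%, 69.3% and 17.0% of the MyoCre mean. Which exons the deletion removes is not known here, so a value summed over all exons is an incomplete check of it. All 10 muscle fibre markers were present, with Tnnc2 at 9431 to 16667 FPKM. Their summed level, of which Tnnc2 was the largest part, was 33975 to 38950 FPKM in MyoCre and 29036, 26450 and 42606 FPKM in the knockouts. The sum was below the MyoCre range in K15SKO 1 and 2 and above it in K15SKO 3. Single markers did not all follow it. For 3 of the 10 all K15SKO values lay above all MyoCre values, against 13.4% of all genes. For 0 of the 10 they all lay below, against 11.3%. Like the sum, several members with lower values, among them Eef1a2, Eef2 and Eif4g1, were below the MyoCre range in K15SKO 1 and 2 alone. The summed level of 12 hepatocyte markers was 20.7 to 39.3 FPKM in MyoCre and 88.1, 6110 and 19.7 FPKM in the knockouts. That of the 10 macrophage markers was 44.2 to 52.9 FPKM in MyoCre and 378, 213 and 40.8 FPKM in the knockouts. For 10 markers of regenerating or denervated fibres it was 36.8 to 45.3 FPKM in MyoCre and 128, 97.2 and 41.1 FPKM in the knockouts. Of these lists, Apoc3, Cps1, Fga, Fgb and Serpina1a of liver were at 0 in some MyoCre libraries, and a second row of Itgam was at 0 in 5 of the 6 libraries. These 3 sums were thus higher in K15SKO 1 and 2 than in K15SKO 3. For 10 of 12 hepatocyte and 7 of 10 regenerating fibre markers, all K15SKO values lay above all MyoCre values, against 13.4% of all genes. This held for 0 of 8 tested macrophage markers. Alb stood at 4.36 FPKM in K15SKO 3 and at 0.298 to 1.13 FPKM in MyoCre. Gadd45a, the most abundant marker of regenerating fibres, was lower in K15SKO 3, at 17.6 FPKM against 19.6 to 29.7 FPKM in MyoCre. Other lists had other orders: 8 adipocyte markers summed to 424 to 1093 FPKM in MyoCre and to 185, 124 and 245 FPKM in the knockouts, and 9 slow fibre markers to 52.2 to 306 and to 820, 248 and 1130 FPKM. For all 7 tested adipocyte markers, all K15SKO values lay below all MyoCre values, against 11.3% of all genes. For 3 of 9 slow fibre markers they all lay above, and for 0 below. The part of these lists in the results below was not tested. In bulk tissue, fewer cells of a type and less RNA per cell cannot be told apart.

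Comparing the groups asks which transcripts of the translation factors differ when Klf15 is deleted in muscle. Together the 61 genes made up 1.177% to 1.227% of all FPKM in MyoCre and 1.079% to 1.155% in K15SKO, so that their summed share was lower in each K15SKO library than in each MyoCre library. The summed FPKM itself overlapped, at 4713, 4680 and 5193 in the controls and 4504, 4580 and 5038 in the knockouts. K15SKO 3, with the lowest share, had the largest total of all genes, at 466756 FPKM against 397426 to 423214 in MyoCre. Eef1a2 and Eef2 weighed most in these sums, with means of 883 and 552 FPKM over the 6 libraries. The median of the members' means was 31.2 FPKM. The lower share thus does not describe the family as a whole. Single genes differed in both directions, 32 being higher and 29 lower on average in K15SKO. Eef1a1, Eif2ak2, Eef1b2 and Eef1g had the highest positive differences, and Eif4ebp2, Eif4b and Eef2 the most negative. The differences were mostly small: 17 genes differed by less than 0.1 on the log2(FPKM + 1) scale, and 4 by more than 0.5.

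No member passed the test in limma, a linear model fitted to log2(FPKM + 1) over 11607 genes, at a Benjamini-Hochberg adjusted p of 0.05. The members' adjusted p ran from 0.269 to 0.995, and the test called 0.0517% of all genes. Klf15, the deleted gene, did not pass it either, with a difference of −2.06 (SE 0.66, limma adjusted p = 0.273). A gene that fails this test is thus not shown to be unchanged. At an unadjusted p under 0.05, 7 members were higher and 1 was lower. Over all genes 8.43% were higher and 8.12% lower at that level. Quantile normalization turned this into 5 higher and 8 lower members, and into 6.70% and 10.8% of all genes. For 15 members all K15SKO values lay above all MyoCre values, against 13.4% of all genes. For 2 members, Eif4ebp2 and Eif3e, they all lay below, against 11.3% of all genes. The members' shares were 24.6% and 3.28%, which are above and below those of all genes, and no test was made of either difference. The median difference over the members was 0.02, beside −0.02 over all genes tested.

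**Figure D1:**
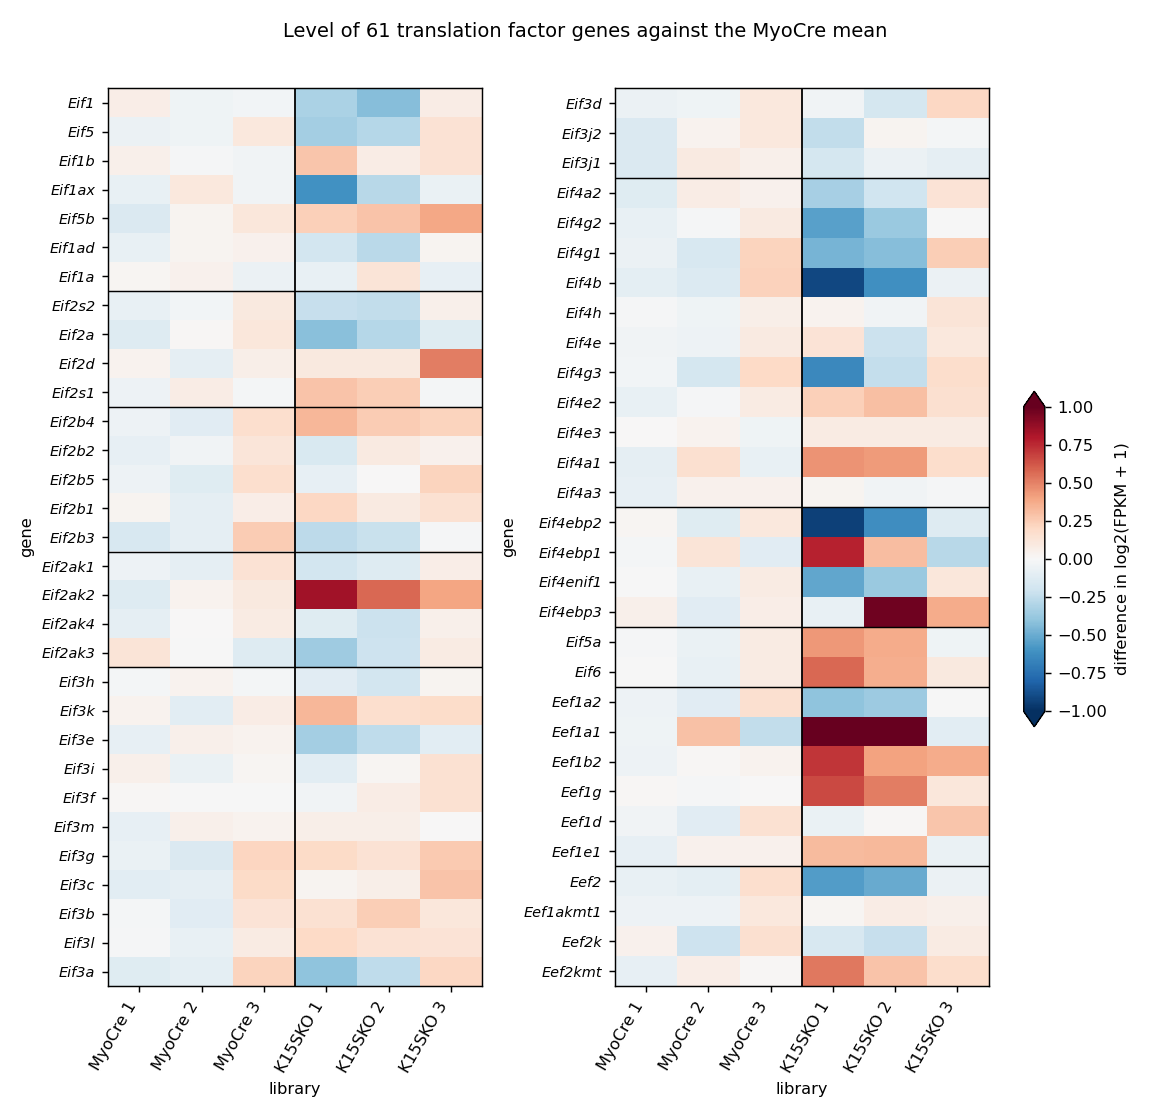
Each cell is the difference in log2(FPKM + 1) between a library and the MyoCre mean, for the 61 genes (rows, split over 2 panels and grouped by role with black lines) in the 6 libraries (columns). Red is higher and blue lower, and colours saturate at 1. Columns K15SKO 1 and K15SKO 2 hold most of the strong colours, while K15SKO 3 is closer to the MyoCre columns.

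The K15SKO libraries differed among themselves. In K15SKO 1 and 2 together, 22 members stood above the range of the 3 MyoCre libraries and 22 below it, against 26.7% and 34.4% of all genes. Of the 22 above, K15SKO 3 was also above for 15, within the range for 6 and below for 1. Of the 22 below, K15SKO 3 was also below for 2, within the range for 15 and above for 5. Over all genes, K15SKO 3 was also above for 1550 of 3104 and also below for 1317 of 3998, and the members were not tested against this. For 15 members, or 24.6%, K15SKO 1 and 2 were below and K15SKO 3 within the MyoCre range, against 13.6% of all genes. For 6 members, or 9.84%, K15SKO 1 and 2 were above and K15SKO 3 within it, against 8.34%. In all, K15SKO 3 lay within the MyoCre range for 27 members, or 44.3%, against 38.6% of all genes. The median absolute difference of the members from the MyoCre mean was 0.27, 0.24 and 0.11 log2 units in K15SKO 1 to 3, and 0.05 to 0.09 in the MyoCre libraries, which are part of that mean. Over all genes tested it was 0.32, 0.28 and 0.15 in the knockouts, in the same order. Klf15, measured over all cells of the sample, stood at 7.08%, 69.3% and 17.0% of the MyoCre mean in K15SKO 1 to 3. K15SKO 2 also had the most hepatocyte transcripts. Whether the Klf15 level is related to the order of the libraries was not tested.

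When K15SKO 3 was left out, for which the labels offer no reason, 14 of the 61 members passed the limma test, or 23.0%, against 23.6% of all genes. The share was near that of all genes. By direction, 8 members were higher, against 10.8% of all genes, and 6 were lower, against 12.8%. The higher ones were Eef1a1, Eef1b2, Eef1e1, Eef1g, Eif2ak2, Eif4a1, Eif5a and Eif6. The lower ones were Eef2, Eif1, Eif4b, Eif4ebp2, Eif4enif1 and Eif4g2. Their adjusted p in limma ran from 0.0123 for Eef1a1 (log2 difference 1.48) to 0.0486 for Eef1e1 (0.32). No member passed when any other single library was left out.

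**Figure D2:**
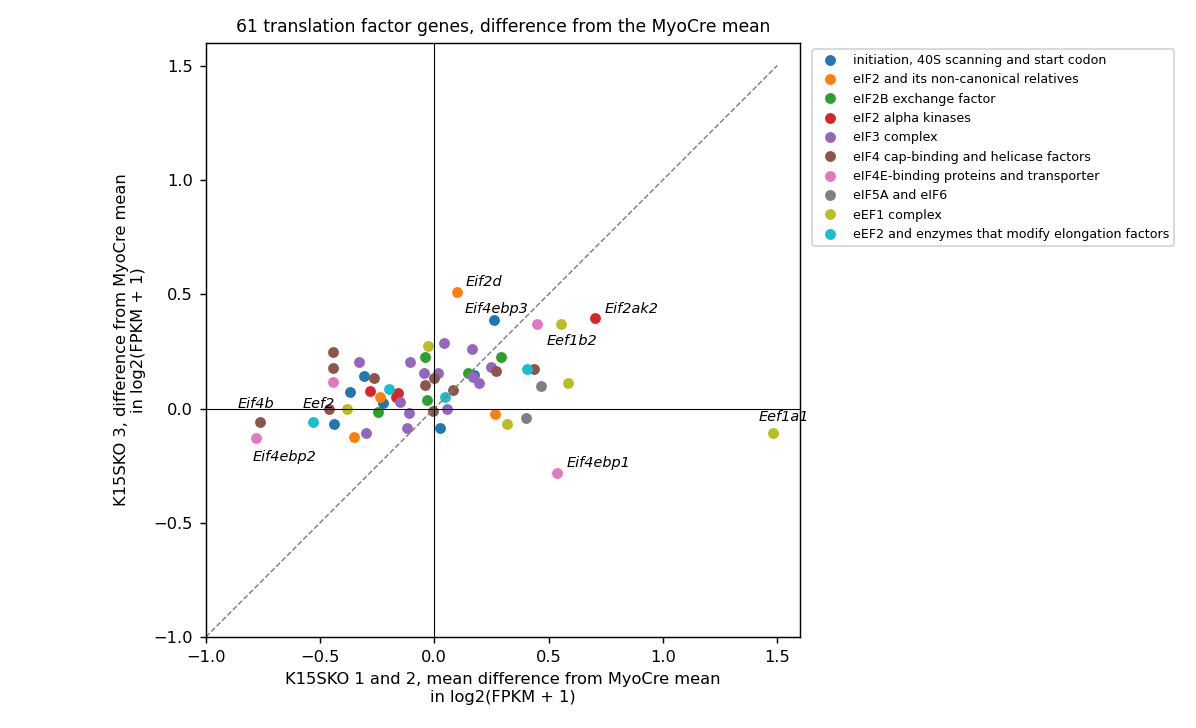
Each point is a gene, with its mean difference from the MyoCre mean in K15SKO 1 and 2 on the horizontal axis and its difference in K15SKO 3 on the vertical axis, both in log2(FPKM + 1), coloured by role. On the dashed line both would be equal. Eef1a1, at 1.48 on the horizontal axis, and Eif4ebp2 and Eif4b on the left lie near 0 on the vertical axis, while Eef1b2 and Eif2ak2 lie above 0 on both.

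The eEF1 complex carries aminoacyl-tRNA to the ribosome and recharges eEF1A with GTP. Its 6 members had a median difference of 0.31, and 5 of them were higher on average in K15SKO. Eef1a2, the eEF1A form of mature muscle, had the highest level of all members. It lies on chromosome 2 from 181147653 to 181157014 on the minus strand of GRCm38. It measured 923, 883 and 1071 FPKM in the controls, compared with 723, 743 and 955 FPKM in the knockouts. K15SKO 1 and 2 were below all MyoCre libraries and K15SKO 3 was among them. The difference was −0.26 (SE 0.16, limma adjusted p = 0.412).

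Eef1a1, the eEF1A form of most other cells, lies on chromosome 9 from 78478449 to 78489151 on the minus strand. It measured 107, 134 and 92.3 FPKM in the controls, compared with 274, 347 and 102 FPKM in the knockouts. K15SKO 1 and 2 were at 246% and 312% of the MyoCre mean, and K15SKO 3 lay within the MyoCre range. The difference was 0.95 (SE 0.45, limma adjusted p = 0.328), the largest of all members and also the one with the largest SE. K15SKO 2, with the highest Eef1a1, also had the most hepatocyte transcripts, and K15SKO 1 the most macrophage transcripts. The summed markers of regenerating or denervated fibres were at 128, 97.2 and 41.1 FPKM in K15SKO 1 to 3. Whether any of these is related to the level of Eef1a1 was not tested. Without K15SKO 2 the difference of Eef1a1 was 0.60, and without K15SKO 1 it was 0.77.

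Because eEF1A1 and eEF1A2 do the same step, the share of Eef1a1 in their summed FPKM describes the mix without depending on library scaling. It was 10.4%, 13.2% and 7.94% in the controls and 27.5%, 31.9% and 9.63% in the knockouts. Eef1a2 remained the more abundant form in all 6 libraries. The mean share was 10.5% ± 2.64 in MyoCre and 23.0% ± 11.8 in K15SKO (SD, n = 3 each), with p = 0.3 in an exact two-sided permutation test. Such a test of 3 against 3 libraries gives 0.1 at the smallest, and adjusted over the 6 paralog pairs examined the p was 0.36. The pairs were chosen after their values were seen.

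The other subunits recharge eEF1A. Eef1b2, the exchange factor beta, measured 114, 119 and 120.5 FPKM in the controls, compared with 194, 156 and 153 FPKM in the knockouts. No overlap was seen between the groups, and K15SKO 2 and 3 were alike. Its difference was 0.49 (SE 0.13, limma adjusted p = 0.269), higher in 3 of 3 K15SKO libraries. Eef1b2 lies on chromosome 1 from 63176825 to 63180486, where its span overlaps Ndufs1 on the opposite strand. Without strand information, reads of the overlap cannot be assigned, and Ndufs1 had a mean of 177 FPKM. Eef1g, the scaffold subunit, stood at 75.2 to 76.5 FPKM in MyoCre and at 120.3, 109 and 82.0 FPKM in the knockouts. K15SKO 3 was only just outside the narrow MyoCre range, and the difference was 0.43 (SE 0.16, limma adjusted p = 0.288). Eef1d, the exchange factor delta, overlapped between the groups at 85.1 ± 8.29 FPKM in MyoCre and 89.9 ± 11.4 FPKM in K15SKO. Eef1e1, a partner of the tRNA synthetase complex, stood at 13.6 ± 0.724 and 15.8 ± 2.47 FPKM (SD, n = 3 each).

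Klf15 and its relatives bind CACCC and GC-rich boxes, so the sequence before the start site of the elongation factors is shown. The 150 bases before the start site in RefSeq on GRCm38.p6 are given for the eEF1A pair, for Eef1b2 and for Eef2, which differed in opposite directions. They are written 5′ to 3′ on the gene's strand, with capitals for CACCC or CCGCCC or their reverse complements GGGTG and GGGCGG. The start RefSeq gives for Eef1a1 lies inside the gene's span in GENCODE.
Eef1a1, chr9:78481725-78481874, minus strand: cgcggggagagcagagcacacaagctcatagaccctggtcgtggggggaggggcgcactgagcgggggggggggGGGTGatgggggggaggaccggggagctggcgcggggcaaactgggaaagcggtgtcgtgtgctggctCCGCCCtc
Eef1a2, chr2:181157016-181157165, minus strand: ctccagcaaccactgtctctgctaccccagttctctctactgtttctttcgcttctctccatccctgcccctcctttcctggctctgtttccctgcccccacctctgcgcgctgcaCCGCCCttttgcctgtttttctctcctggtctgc
Eef1b2, chr1:63176681-63176830, plus strand: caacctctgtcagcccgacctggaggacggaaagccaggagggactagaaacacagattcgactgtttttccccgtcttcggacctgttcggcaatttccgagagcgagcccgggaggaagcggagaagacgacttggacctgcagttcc
Eef2, chr10:81176481-81176630, plus strand: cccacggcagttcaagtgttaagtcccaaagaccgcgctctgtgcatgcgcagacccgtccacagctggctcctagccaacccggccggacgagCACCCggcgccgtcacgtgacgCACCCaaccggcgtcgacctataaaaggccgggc
The Eef1a1 stretch held 1 CACCC match and 1 CCGCCC match, that of Eef1a2 a single CCGCCC match, that of Eef2 2 CACCC matches and that of Eef1b2 none. Windows of 250 bases were found for 47 members, and 26 of them, or 55.3%, held CACCC on either strand, against 61.3% of 8260 tested genes with a window. CCGCCC was in 34, or 72.3%, against 64.0%. The motifs can share their outer C bases but not a whole match. A match is a description of letters and not a binding site.

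**Figure D3:**
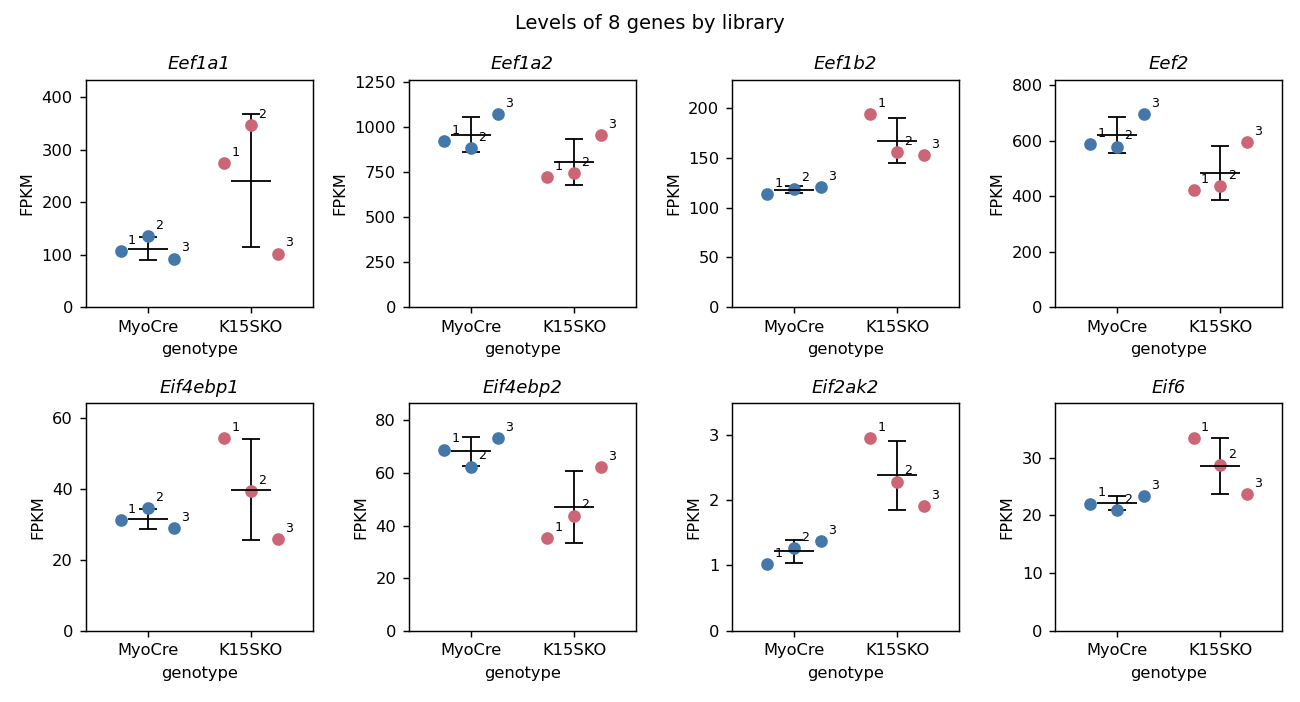
FPKM (vertical axes, from 0) of 8 genes in the 3 MyoCre (blue) and 3 K15SKO (red) libraries, with the library number beside each point. The long bar is the mean and the whiskers are ± 1 SD. For Eef1b2, Eif2ak2, Eif4ebp2 and Eif6 the groups do not overlap, and K15SKO 3 is the K15SKO library nearest to the MyoCre mean in all 8 panels, though for Eif4ebp1 it lies below the MyoCre points.

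eEF2 translocates the ribosome, and several enzymes modify the elongation factors. Eef2 measured 589, 579 and 695 FPKM in the controls, compared with 421, 436 and 594 FPKM in the knockouts, the second highest level after Eef1a2. K15SKO 1 and 2 were at 67.8% and 70.2% of the MyoCre mean and below all MyoCre libraries, whereas K15SKO 3 was within their range. The difference was −0.37 (SE 0.18, limma adjusted p = 0.324). Eef2kmt, a lysine methyltransferase of eEF2, measured 3.87, 4.41 and 4.22 FPKM in the controls, compared with 6.46, 5.28 and 4.82 FPKM in the knockouts. The groups did not overlap, with a difference of 0.33 (SE 0.12, limma adjusted p = 0.286). Eef2k, the kinase that inhibits eEF2, overlapped at 20.2 ± 2.67 and 18.7 ± 2.34 FPKM, as did Eef1akmt1, a methyltransferase of eEF1A, at 25.7 ± 1.69 and 26.6 ± 0.529 FPKM (SD, n = 3 each).

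The proteins that hold back eIF4E differed from each other. Eif4ebp2 was the more abundant binding protein in MyoCre, at 68.8, 62.4 and 73.2 FPKM, and stood at 35.2, 43.7 and 62.1 FPKM in the knockouts. The groups did not overlap, though K15SKO 3 was only just below MyoCre 2. Its difference of −0.56 (SE 0.21, limma adjusted p = 0.288) was the most negative of all members. It lies on chromosome 10 from 61428491 to 61452661 on the minus strand. Eif4ebp1 measured 31.2, 34.7 and 29.0 FPKM in the controls, compared with 54.3, 39.4 and 25.8 FPKM in the knockouts. K15SKO 1 and 2 were above the MyoCre libraries and K15SKO 3 below them, and the difference was 0.27 (SE 0.26, limma adjusted p = 0.564). It was 0.02 without K15SKO 1 and 0.54 without K15SKO 3. Eif4ebp1 thus made up 28.4% to 35.7% of the summed FPKM of both in MyoCre and 60.7%, 47.4% and 29.35% in the knockouts. The exact two-sided permutation test of that share gave p = 0.3 (0.36 adjusted over the pairs).

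Eif4ebp3, the least abundant binding protein, stood at 6.28 to 7.24 FPKM in MyoCre and at 6.46, 14.5 and 9.18 FPKM in the knockouts. It was high in K15SKO 2, the library with the most hepatocyte transcripts, and K15SKO 1 was within the MyoCre range. Whether these transcripts are related to the level of Eif4ebp3 was not tested. Its difference was 0.42 (SE 0.26, limma adjusted p = 0.402), and 0.15 without K15SKO 2. Eif4enif1, which moves eIF4E into the nucleus, stood at 6.73, 7.56 and 11.0 FPKM in the knockouts against 10.1 ± 0.616 FPKM in MyoCre (SD, n = 3).

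The other 4 pairs were read in the same way. Eif4g3 made up 23.7%, 23.1% and 23.0% of its sum with Eif4g1 in the controls and 20.9%, 25.6% and 22.4% in the knockouts, with K15SKO 1 and 2 on opposite sides of MyoCre (exact two-sided permutation p = 0.8). Eif4a1 made up 5.80% to 6.69% of its sum with Eif4a2 in MyoCre and 10.5%, 9.55% and 6.50% in the knockouts (exact p = 0.2). For Eif1b, with Eif1, the share was 9.72% to 9.98% in MyoCre and 14.1%, 13.35% and 10.3% in the knockouts, without overlap (exact p = 0.1). That of Eif1a, with Eif1ax, was 18.0% to 19.6% in MyoCre and 25.02%, 23.6% and 18.3% in the knockouts (exact p = 0.2). Adjusted over the 6 pairs, the exact p was 0.8 for Eif4g3 and 0.36 for the others.

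**Figure D4:**
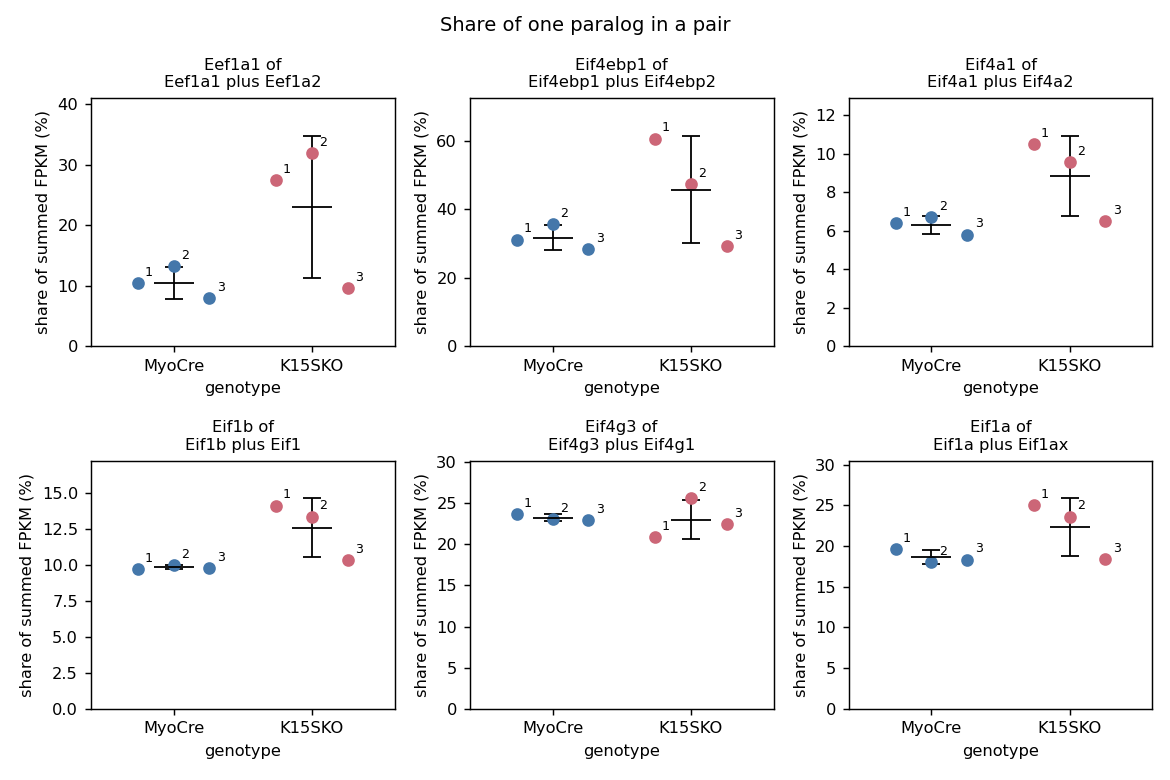
Share of the first-named gene in the summed FPKM of 6 pairs of paralogs (vertical axes in percent, from 0) in the MyoCre (blue) and K15SKO (red) libraries, with library numbers, means and ± 1 SD. In 5 pairs K15SKO 1 and 2 lie above the 3 MyoCre points, as with 27.5% and 31.9% for Eef1a1, while for Eif4g3 K15SKO 1 lies below them and K15SKO 2 above.

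The cap-binding and helicase factors recruit the messenger. Their 11 members had a median difference of −0.01, with higher and lower members side by side. Eif4a2, the main helicase of this tissue, measured 185, 211 and 207 FPKM in the controls, compared with 160, 175 and 220 FPKM in the knockouts. Eif4a1, its paralog, was at 12.6, 15.2 and 12.7 FPKM in the controls, compared with 18.7, 18.5 and 15.3 FPKM in the knockouts. The groups did not overlap for Eif4a1 (difference 0.35, SE 0.12, limma adjusted p = 0.281), but they did for Eif4a2 (−0.13, SE 0.15, adjusted p = 0.631 in limma). Eif4b, which stimulates the helicase, stood at 47.4, 58.3 and 86.3 FPKM in the knockouts against 90.5 ± 13.1 FPKM in MyoCre (SD, n = 3), with a difference of −0.53 (SE 0.24, limma adjusted p = 0.312).

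The scaffolds of the cap complex had the same order of libraries. Eif4g1 stood at 112, 115 and 184 FPKM in the knockouts against 156 ± 22.4 FPKM in MyoCre. Eif4g2, a scaffold without an eIF4E site, stood at 140, 157 and 204 FPKM against 204 ± 11.7 FPKM, and Eif4g3 at 29.7, 39.6 and 53.3 FPKM against 47.3 ± 6.35 FPKM (SD, n = 3). For each, K15SKO 1 and 2 were below the MyoCre range and K15SKO 3 was within or above it. Among the cap-binding protein genes, Eif4e measured 49.2, 48.6 and 53.9 FPKM in the controls, compared with 55.6, 43.3 and 54.3 FPKM in the knockouts, with a difference of 0.01 (SE 0.13, limma adjusted p = 0.976). Eif4e2, a cap-binding relative that represses translation, stood at 26.3, 27.4 and 29.5 FPKM against 32.9, 34.3 and 31.1 FPKM without overlap, with a difference of 0.23 (SE 0.10, limma adjusted p = 0.306).

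eIF2, its exchange factor eIF2B and its kinases set how often initiator tRNA is supplied. Eif2s1, the alpha subunit that the kinases phosphorylate, stood at 13.7 ± 0.650 FPKM in MyoCre and 15.6 ± 1.87 FPKM in K15SKO, and Eif2s2, the beta subunit, at 58.7 ± 3.63 and 53.2 ± 6.45 FPKM (SD, n = 3 each). Eif2a, which is a separate initiator tRNA carrier and not the alpha subunit, measured 25.4, 28.2 and 30.4 FPKM in the controls, compared with 20.7, 22.8 and 25.5 FPKM in the knockouts. K15SKO 3 lay just above the lowest MyoCre library, and the difference was −0.27 (SE 0.12, limma adjusted p = 0.312). Eif2d, another such carrier, was highest in K15SKO 3 at 21.8 FPKM, with 16.2 and 16.1 FPKM in K15SKO 1 and 2 and 14.0 to 15.6 FPKM in MyoCre.

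Among the kinases, Eif2ak2, the double-stranded RNA sensor PKR that interferon induces, measured 1.02, 1.26 and 1.37 FPKM in the controls, compared with 2.95, 2.28 and 1.91 FPKM in the knockouts. The groups did not overlap, and all K15SKO libraries were at 157% to 243% of the MyoCre mean. The difference was 0.60 (SE 0.16, limma adjusted p = 0.269). It lies on chromosome 17 from 78852564 to 78882573 on the minus strand. Its level was low, and the scale with 1 FPKM added understates the change of low genes: with 0.1 added the difference was 0.90. The other 3 kinases had negative differences. Eif2ak3, the kinase PERK of the endoplasmic reticulum, stood at 0.8602, 1.06 and 1.51 FPKM in the knockouts against 1.39 ± 0.215 FPKM in MyoCre (SD, n = 3). Eif2ak1, the haem-regulated kinase and the most abundant of them, stood at 18.2 ± 1.73 and 17.1 ± 1.70 FPKM, and Eif2ak4, the amino acid sensor GCN2, at 1.58 ± 0.155 and 1.43 ± 0.227 FPKM (SD, n = 3 each).

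Of the 5 eIF2B subunit genes, Eif2b4 measured 24.9, 23.8 and 29.2 FPKM in the controls, compared with 32.8, 31.0 and 30.4 FPKM in the knockouts. The groups did not overlap, and the difference was 0.27 (SE 0.11, limma adjusted p = 0.303). Eif2b1 did not overlap either, at 20.5, 18.8 and 21.03 FPKM against 23.3, 21.5 and 22.5 FPKM. The catalytic subunit gene Eif2b5, and Eif2b2 and Eif2b3, overlapped between the groups.

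The genes of the eIF3 complex differed little. Its 14 genes had a median difference of 0.03 and ranged from −0.23 to 0.23, and 0 had an unadjusted p under 0.05. Its summed FPKM was 700.1 to 754 in MyoCre and 707, 714 and 772 in K15SKO 1 to 3. Eif3h, the most abundant, measured 100.5, 104 and 100.3 FPKM in the controls, compared with 93.9, 89.3 and 104 FPKM in the knockouts. Eif3e had the lowest difference, at 89.3, 98.1 and 97.2 FPKM against 74.5, 79.5 and 87.9 FPKM without overlap (−0.23, SE 0.11, limma adjusted p = 0.333). Eif3k had the highest, at 84.1, 75.9 and 86.2 FPKM in MyoCre against 104, 91.9 and 93.2 FPKM, also without overlap (0.23, SE 0.11, limma adjusted p = 0.337). Subunits of this complex thus lay on both sides of 0.

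The factors of scanning and start codon choice also differed in sign. Eif1, which guards start codon choice, measured 383, 356 and 359 FPKM in the controls, compared with 294, 272 and 385 FPKM in the knockouts. The first 2 knockouts were below the MyoCre libraries and K15SKO 3 just above them, with a difference of −0.22 (SE 0.16, limma adjusted p = 0.453). It was −0.12 without K15SKO 2, −0.37 without K15SKO 3 and −0.34 with quantile normalization. Eif1ax measured 29.2, 33.1 and 29.97 FPKM in the controls, compared with 19.9, 25.1 and 29.3 FPKM in the knockouts (−0.32, SE 0.16, limma adjusted p = 0.337). Eif5b, the GTPase that joins the ribosomal subunits, was higher in 3 of 3 K15SKO libraries, at 17.8, 18.5 and 19.9 FPKM against 13.5, 15.3 and 16.3 FPKM. Its difference was 0.30 (SE 0.11, limma adjusted p = 0.281), and it was among 10 members for which K15SKO 3 was the knockout farthest from the MyoCre mean.

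Eif5a, whose hypusine-modified product helps ribosomes past difficult stretches, measured 286, 277 and 305 FPKM in the controls, compared with 391, 374 and 281 FPKM in the knockouts. The first 2 knockouts were above the MyoCre range and K15SKO 3 within it, with a difference of 0.25 (SE 0.16, limma adjusted p = 0.411). Eif6, which keeps the ribosomal subunits apart and is needed to make large subunits, measured 22.01, 20.9 and 23.3 FPKM in the controls, compared with 33.3, 28.7 and 23.7 FPKM in the knockouts. The values did not overlap, but K15SKO 3 was just above MyoCre 3 (0.35, SE 0.14, limma adjusted p = 0.301).

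Many of these genes have near-identical copies that could take part of their reads. Of the 61 genes, 16 had a transcript that matched another gene of the table over at least 200 bases at 95% identity or more. For Eef1g, Eif4a1, Eif2s2 and Eif3j1 the copies had more FPKM than the gene itself in all 6 libraries. Copies of Eef1g, mainly the pseudogene Gm4366 (99.6% identity over 1342 bases), summed to 195 to 210.4 FPKM in MyoCre and to 291, 273 and 208 FPKM in the knockouts. Copies of Eif4a1, mainly Eif4a-ps4 (99.9% over 1218 bases), summed to 47.0, 52.8 and 49.3 FPKM in MyoCre and to 83.5, 74.0 and 54.5 FPKM in the knockouts. The copy of Eif2s2, Gm9892, had 68.3, 68.9 and 80.4 FPKM in the controls and 63.8, 68.9 and 82.4 FPKM in the knockouts, and with it the difference of Eif2s2 was −0.07 in place of −0.14. The levels of these genes are therefore uncertain, and so is the share of Eif4a1 among the helicases. With the copies added, the differences were 0.36 for Eef1g, 0.46 for Eif4a1, 0.95 for Eef1a1 and 0.47 for Eef1b2, all of the same sign as without them. Eif1 had 8 such matches, and its difference was −0.11 with them and −0.22 without. They include Emd, a separate protein-coding gene that shares a stretch of 662 bases and had 20.4 to 25.3 FPKM, so this sum is not of Eif1 copies alone. Eif3j1 and Eif3j2 match each other and cannot be told apart by such reads.

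**Figure D5:**
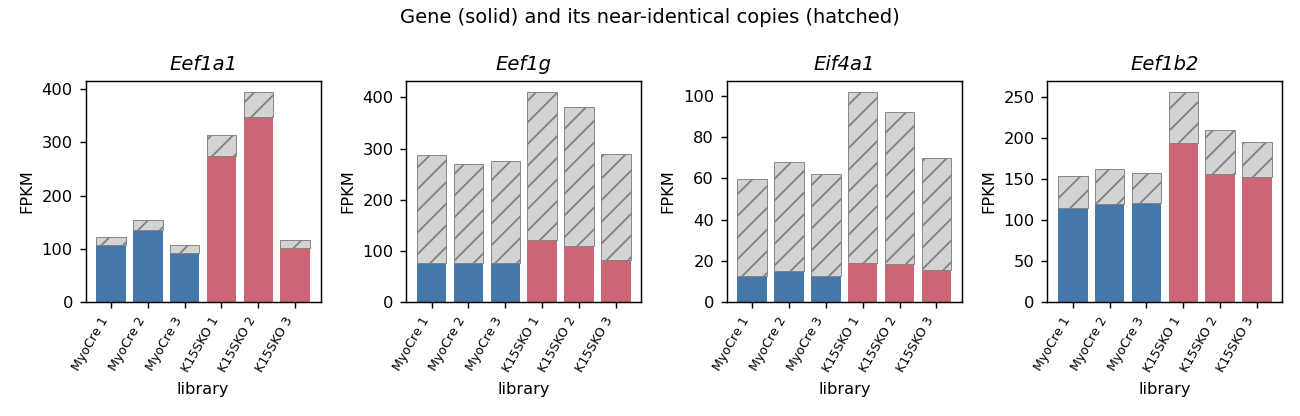
FPKM (vertical axes, from 0) of 4 genes in each library as solid bars, blue for MyoCre and red for K15SKO, with the summed FPKM of their near-identical copies stacked on top, hatched. For Eef1g and Eif4a1 the hatched part is taller than the solid part in all 6 libraries, and for all 4 genes the stacks of K15SKO 1 and 2 are taller than those of MyoCre.

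Spans of other genes with a mean of at least 1 FPKM overlapped 15 of the members, 8 of them only on the opposite strand. Beside Eef1b2, this concerned Eif1ad, which overlaps Banf1, and Eif2ak1, which overlaps Aimp2, both far more abundant neighbours. Eif4enif1 (mean 9.25 FPKM) overlaps Drg1 (31.6 FPKM), and Eef2kmt (4.84 FPKM) overlaps Alg1 (8.28 FPKM). Less abundant neighbours were Snx17 (24.4 FPKM) at Eif2b4 (28.7 FPKM) and Rev1 (6.90 FPKM) at Eif5b (16.9 FPKM). All these neighbours lie on the opposite strand.

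The other genes of translational control were read from lists by pathway, and none of their members passed the limma test over all genes. Their counts, here and in the next paragraph, stand beside 8.43% of all genes higher and 8.12% lower at an unadjusted p under 0.05. From each list the 2 tested genes with the smallest p are named. Of 29 tested genes of mTORC1 and its regulators, 1 was higher and 2 lower at an unadjusted p under 0.05, with a median of −0.09. Ddit4l, an inhibitor of mTORC1, measured 142, 176 and 188 FPKM in the controls, compared with 96.0, 93.1 and 86.5 FPKM in the knockouts, a difference of −0.86 (SE 0.14, limma adjusted p = 0.228). Here K15SKO 3 did not differ from its group, and all K15SKO libraries were below all MyoCre libraries. Lamtor1, an anchor of mTORC1 on lysosomes, stood at 127, 111 and 104 FPKM in the knockouts against 79.4 to 97.4 FPKM in MyoCre. Of 10 genes of eIF4E kinases and eIF2 phosphatase control, 1 was higher and 1 lower. Mknk2, a kinase of eIF4E, measured 137, 105 and 125 FPKM in the controls, compared with 240.5, 199.6 and 151 FPKM in the knockouts (0.67, SE 0.20, limma adjusted p = 0.272). Impact, which restrains GCN2, stood at 7.92 to 10.6 FPKM in MyoCre and at 5.46, 5.72 and 7.49 FPKM in the knockouts.

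Of 15 tested targets of ATF4, the transcription factor made when eIF2 is phosphorylated, 2 were higher and 2 lower at an unadjusted p under 0.05, and the median was −0.07. Chac1, which breaks down glutathione, measured 142, 129 and 190 FPKM in the controls, compared with 31.9, 31.9 and 74.4 FPKM in the knockouts. Atf3 went the other way, at 3.89, 5.37 and 9.54 FPKM in MyoCre against 41.2, 24.2 and 10.1 FPKM in the knockouts (limma adjusted p = 0.248 and 0.272). Among 7 poly(A)-binding proteins and partners, 2 were lower. Larp1, a repressor of messengers that encode the translation machinery, measured 34.4, 31.3 and 40.8 FPKM in the controls, compared with 23.3, 27.4 and 29.9 FPKM in the knockouts (−0.39, SE 0.15, limma adjusted p = 0.288), and Larp4 at 9.91 to 11.0 FPKM against 5.78, 7.29 and 9.26 FPKM.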

How the data were processed

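RNA sequencing measured total RNA of quadriceps in 6 libraries. The tools STAR, Cufflinks and Cuffdiff and the build mm10 are named per the submitters' processing notes; their versions and roles and the strandedness are not known here. The authors deposited FPKM, a unit inferred from the named tools and the range of values, with 1 column per library and 0 columns of no sample. FPKM keep no counts, so depth is unknown and counting error cannot be given.

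The 11607 genes that reached a mean of 1 FPKM entered a two-sided test in limma 3.58.1 (R 4.3.3; lmFit, then eBayes with trend) on the log2(FPKM + 1) scale, called at a Benjamini-Hochberg adjusted p under 0.05, after a check on simulated data. Further steps used Python 3.11.15 with pandas 2.3.3, numpy 2.4.6 and matplotlib 3.10.9. Coordinates came from GENCODE M21 on GRCm38 (61 of 61 members matched), promoters from RefSeq on GRCm38.p6, and near-identical copies from blastn 2.17.0.

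The members, roles and lists were chosen with earlier results of these data known. The rule for named genes gave Klf15, the 2 members of each role group with the smallest unadjusted p and the 1 with the highest mean, 6 fixed members, the 2 genes of each other list with the smallest p, and the top gene of each marker list; other members named were chosen after their values were seen. Alternatives changed the pseudocount (0.1), the filter (none, or a mean of 5 FPKM), the scaling (quantile, or median of ratios), the eBayes trend and the replicate block, or omitted single libraries.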

Additional observations from a re-analysis of the deposited data

How the results depend on the processing

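Absolute depth is unknown and each group held 3 libraries, so small differences of low genes cannot be weighted by counting error. Under the 13 alternatives, 0 members passed an adjusted p of 0.05 in limma except without K15SKO 3. There 14 did, or 23.0%, against 23.6% of all genes, so this count ran from 0 to 14 over the libraries left out. The count of members lower at an unadjusted p under 0.05 was 1 and became 2 with median-of-ratios scaling, 3 with no filter, 8 with quantile normalization and 4 with the replicate block. The share of all genes lower was 8.12%, and in these settings, in the same order, 9.68%, 5.07%, 10.8% and 10.2%. With single libraries left out the count of lower members ran from 0 to 16, and that of higher members, 7, ran from 2 to 13. Over all genes the share lower then ran from 3.61% to 23.4%, and the share higher from 3.68% to 17.8%. The highest value of each count and share came without K15SKO 3. The cause was not tested, beyond that each fit with a library left out has fewer samples. The median over the members stayed between −0.03 and 0.05. Of 29 members named by rule, Eif4e alone changed sign, to −0.013 with quantile normalization and to between −0.0568 and 0.119 with single libraries left out. Klf15 kept its sign in the 13 alternatives, from −2.84 to −1.43. Whether equal replicate numbers pair the libraries was not settled. Correlations of deviations from the group mean were 0.0024, 0.085 and 0.094 for equal numbers 1 to 3, and −0.0949 to 0.00659 for unequal numbers. Deviations within a group sum to 0, which constrains these correlations, so they cannot decide it.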

Other observations

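None of the genes in the lists below passed the limma test over all genes, and their counts stand beside 8.43% of all genes higher and 8.12% lower at an unadjusted p under 0.05. Of 22 aminoacyl-tRNA synthetases and their scaffolds, which load amino acids onto tRNA, 2 were higher and 0 lower at an unadjusted p under 0.05. Hars measured 14.2, 14.9 and 16.9 FPKM in the controls, compared with 23.1, 22.7 and 19.1 FPKM in the knockouts (limma adjusted p = 0.269). Kars stood at 48.2, 45.2 and 53.9 FPKM against 74.1, 69.2 and 57.9 FPKM (limma adjusted p = 0.272). Of 10 mitochondrial translation factors 2 were higher and 0 lower. Mtif3, an initiation factor of mitochondria, stood at 9.74, 9.83 and 10.5 FPKM against 13.4, 14.4 and 12.3 FPKM, and Tsfm, the mitochondrial exchange factor, at 11.4, 11.5 and 12.2 FPKM against 20.99, 15.5 and 14.2 FPKM (limma adjusted p = 0.269 and 0.273). For these 4 genes, picked for their small p, the groups did not overlap. All K15SKO values lay above all MyoCre values for 4 of the 22 genes of the synthetase list. The same held for 3 of the 10 mitochondrial factors, against 13.4% of all genes.

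Of 8 tested genes of termination and recycling, 2 were higher and 0 lower at an unadjusted p under 0.05. They were Denr, at 19.8, 20.97 and 21.6 FPKM in MyoCre against 29.1, 26.2 and 23.5 FPKM in the knockouts, and Mcts2, at 8.84, 10.1 and 10.6 FPKM against 13.3, 13.4 and 11.4 FPKM (limma adjusted p = 0.281 and 0.279). Of 9 hypusine and diphthamide enzymes, 0 were higher and 0 lower, with Dph1 and Dph2 at differences of −0.23 and −0.16. Of 6 genes of selenocysteine elongation, 0 were higher and 0 lower. Eefsec, the selenocysteine elongation factor, measured 2.19, 2.03 and 2.32 FPKM in the controls, compared with 2.45, 3.21 and 2.56 FPKM in the knockouts.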
